A study of Mus musculus with 11 samples.

Results

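AMPA receptor transcripts were followed in astrocytes of 4 brain regions through 10 genes. These are the pore-forming subunits Gria1, Gria2, Gria3 and Gria4, the auxiliary subunits Cacng4, Cacng5, Cacng7, Cacng8 and Shisa9, and the scaffold Grip1, out of 24421 entries in the data. The genes were chosen with their measured values across these regions and samples in view, so that their levels, ratios and region differences are given as a description and carry no p-value. Astrocytes were sorted by FACS on eGFP from 16-week-old Aldh1l1-eGFP mice of the C57BL/6 strain, in which the Aldh1l1 promoter drives the reporter. RNA-seq was performed on 3 samples from the olfactory bulb (OB), 3 from the hippocampus (HC), 2 from the cortex (CX) and 3 from the brainstem (BS). All groups share the genotype, age and sort and differ in region, and the labels name no treatment. The labels do not say whether the samples of a region came from separate animals, so the SDs describe the spread between samples and may be technical. Each value is the number of reads counted on a gene divided by the size factor of its sample and is called a normalized value here.

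AMPA receptors are tetrameric cation channels that open on binding glutamate and carry most fast excitatory transmission. Their subunits GluA1 to GluA4 are the products of Gria1 to Gria4, and the GluA2 subunit, once its transcript is edited at a codon in the pore, makes the channel nearly impermeable to calcium. The transmembrane AMPA receptor regulatory proteins (TARPs), products of Cacng genes, and the unrelated protein CKAMP44, product of Shisa9, associate with the channel and change its gating and its delivery to the membrane. AMPA receptors have long been known in glia. Bergmann glia of the cerebellum are the classic case of astrocytes that carry them without GluA2.

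The stretch around the edited codon is shown for the 4 subunits, because the share of Gria2 described further on concerns this codon. Each run was taken from the GENCODE M21 transcript on GRCm38, reads 5′ to 3′ on the coding strand and holds the pore codon in capitals. Capitals mark genomic positions chr11:57243094-57243096 on the plus strand for Gria1, chr3:80706911-80706913 on the minus strand for Gria2, chrX:41610265-41610267 on the plus strand for Gria3 and chr9:4464137-4464139 on the minus strand for Gria4. The codon lies in coding exon sequence, in exon 12 of the Gria4 transcript and in exon 11 of the others.
Gria1: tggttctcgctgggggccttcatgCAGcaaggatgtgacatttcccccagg
Gria2: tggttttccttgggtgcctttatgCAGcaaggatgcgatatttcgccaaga
Gria3: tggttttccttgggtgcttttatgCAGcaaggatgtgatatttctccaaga
Gria4: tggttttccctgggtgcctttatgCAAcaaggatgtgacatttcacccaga
All 4 codons encode glutamine in the genome, and in Gria2 the enzyme ADAR2, product of Adarb1, recodes it to arginine in the RNA. Of the 51 bases, Gria2 shared 48 with Gria3, 45 with Gria4 and 41 with Gria1. Values per gene hold no information on the edited fraction, nor on the flip and flop exons.

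The ends of the coding sequences show which of these genes share the last amino acids of their products. The last 4 codons, which encode the tail read by PDZ domains, are in capitals in each 30-base run from the same transcripts. The capitals lie in coding exons at chr3:80689109-80689120 (minus strand) for Gria2, chrX:41672450-41672461 (plus) for Gria3, chr11:107734783-107734794 (minus) for Cacng4, chr7:3415591-3415602 (plus) for Cacng8, chr11:107877355-107877366 (minus) for Cacng5 and chr7:3366934-3366945 (plus) for Cacng7. Gria2 and Gria3, whose tails bind the product of Grip1, ended on the same 4 amino acids and shared 23 of the 30 bases.
Gria2: aacgtatatggcatcgagAGTGTTAAAATT
Gria3: aacgtgtatggaacagaaAGTGTTAAGATC
Cacng4: agcatgctgaaccggcggACGACTCCCGTG
Cacng8: aacacgctcaacaggaaaACCACGCCCGTG
Cacng5: gactatgaccagatgtcaTCATCTCCCTGC
Cacng7: gaccatctccacatctccACTTCGCCGTGC
Cacng4 and Cacng8, both type I TARPs, likewise ended on the same 4 amino acids and shared 21 of 30 bases. Cacng5 and Cacng7, both type II TARPs, shared 20 of 30 bases and 3 of the 4 last amino acids.

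Between 2830746 and 14151670 reads were counted per sample, with a median of 3098215 in BS and 7389472 in HC, and 3 reads, taken as a floor, corresponded to values of 1.10 to 6.31. Ribosomal Rn45s took 0.966% to 2.93% of the reads in OB and HC samples and 18.0% to 25.6% in CX and BS samples. All 8 astrocyte markers were detected in every sample, with summed values of 230526 to 275534 in OB, 270999 to 461723 in HC, 555938 to 630026 in CX and 93288 to 277780 in BS. Slc1a2 made up most of this sum in each region, with means of 177229 in OB, 334214 in HC, 507178 in CX and 128002 in BS. Aldh1l1, the gene of the sort, had means of 959, 764, 1180 and 845 in the same regions. Markers of other cells were present too. The 8 oligodendrocyte precursor (OPC) markers summed to 5251 to 7969 in BS and to 2354 to 4203 elsewhere. Bcas1 alone had a mean of 4841 in BS, beside 6968 for the mean OPC sum there. The 8 oligodendrocyte markers summed to 51519 to 88511 in BS and 9491 to 39458 elsewhere. In OB, the 6 neuroblast and stem cell markers reached 603 to 883, against 139 to 463 elsewhere, and the 5 olfactory sensory neuron markers reached 270 to 561, against at most 6.13 elsewhere. The 9 neuronal markers overlapped between OB, at 2156 to 3730, and the other regions, at 1324 to 3441. The 5 choroid plexus markers reached 49535 to 233148 in HC and BS, above the astrocyte sum in the first BS sample, and lay at 169 to 255 in OB and 1564 to 4686 in CX. Ttr made up most of the choroid plexus sum in HC and BS, with means of 107377 and 125514.

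**Figure D1:**
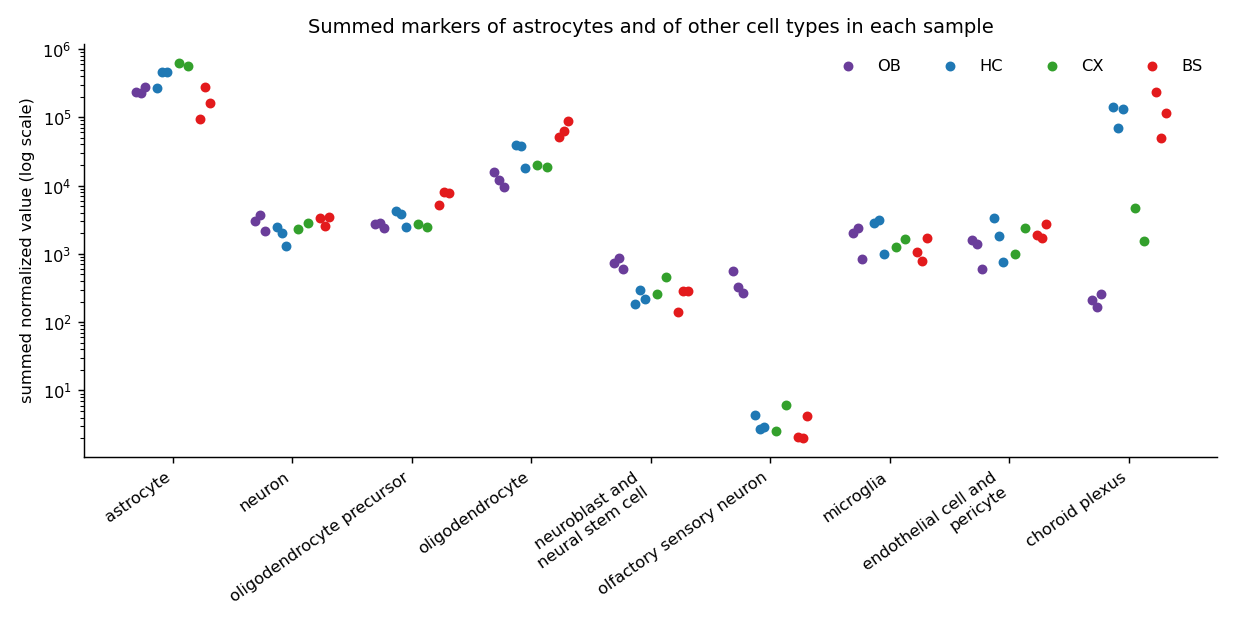
Summed normalized value of each marker list (log axis) in the 11 samples, one point per sample, coloured by region. Astrocyte markers exceeded the neuronal, OPC and oligodendrocyte markers in every sample, the OPC and oligodendrocyte sums were highest in BS, and olfactory sensory neuron markers were highest in OB.

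Gria1 was the most abundant pore subunit in OB, with normalized values of 4010, 3964 and 3943, the smallest relative spread of any of the 10 genes there. It lay at 364, 438 and 314 in HC and at 274 and 302 in CX. In BS it lay at 1005, 3259 and 1945, below every OB sample and above every HC and CX sample. The region means were 3972 ± 34.4 (SD, n = 3) in OB, 2070 ± 1132 (SD, n = 3) in BS, 372 ± 62.0 (SD, n = 3) in HC and 288 ± 19.9 (SD, n = 2) in CX. In bulk RNA of sorted cells, fewer cells of a type and less RNA per cell cannot be told apart.

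Gria2, which determines calcium permeability, followed another order. Its values were 2309, 2943 and 2412 in OB, 1104, 1401 and 975 in HC and 877 and 1032 in CX. The BS samples, at 329, 539 and 396, were the lowest of all 11, where 188 to 313 reads stood behind each value. The OB mean was 2.20-fold that of HC, and the CX mean was 2.27-fold that of BS, without overlap of samples in either step, whereas HC and CX samples overlapped. Gria1 and Gria2 thus both peaked in OB and parted in BS, where Gria1 took second place and Gria2 the last.

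Gria3 was highest in OB, at 621, 619 and 385. It lay at 165, 118 and 59.1 in HC, 172 and 147 in CX and 102, 114 and 122 in BS. The OB samples lay above all others, and the neighbouring regions below them overlapped, with CX, HC and BS means of 160, 114 and 113.

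Gria4 peaked in BS, unlike the other subunits. Its values there were 1202, 3093 and 2326, followed by 759, 622 and 629 in OB, 75.0, 133 and 92.5 in HC and 211 and 58.3 in CX. The BS mean of 2207 ± 951 (SD, n = 3) was 3.29-fold the OB mean of 670 ± 77.1 (SD, n = 3), without overlap. The OB mean was 4.98-fold that of CX, again without overlap, and CX and HC samples overlapped. Within BS, Gria1, Gria2, Gria4, Cacng5, Shisa9 and the summed astrocyte markers had the same sample order. The astrocyte sums were 93288, 277780 and 159991 in replicates 1, 2 and 3. Gria3, Cacng4, Cacng7, Cacng8 and Grip1 had other orders. The choroid plexus markers, at 233148, 49535 and 115069, had the reverse of the astrocyte order. The part of either in the spread of the BS values was not tested.

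**Figure D2:**
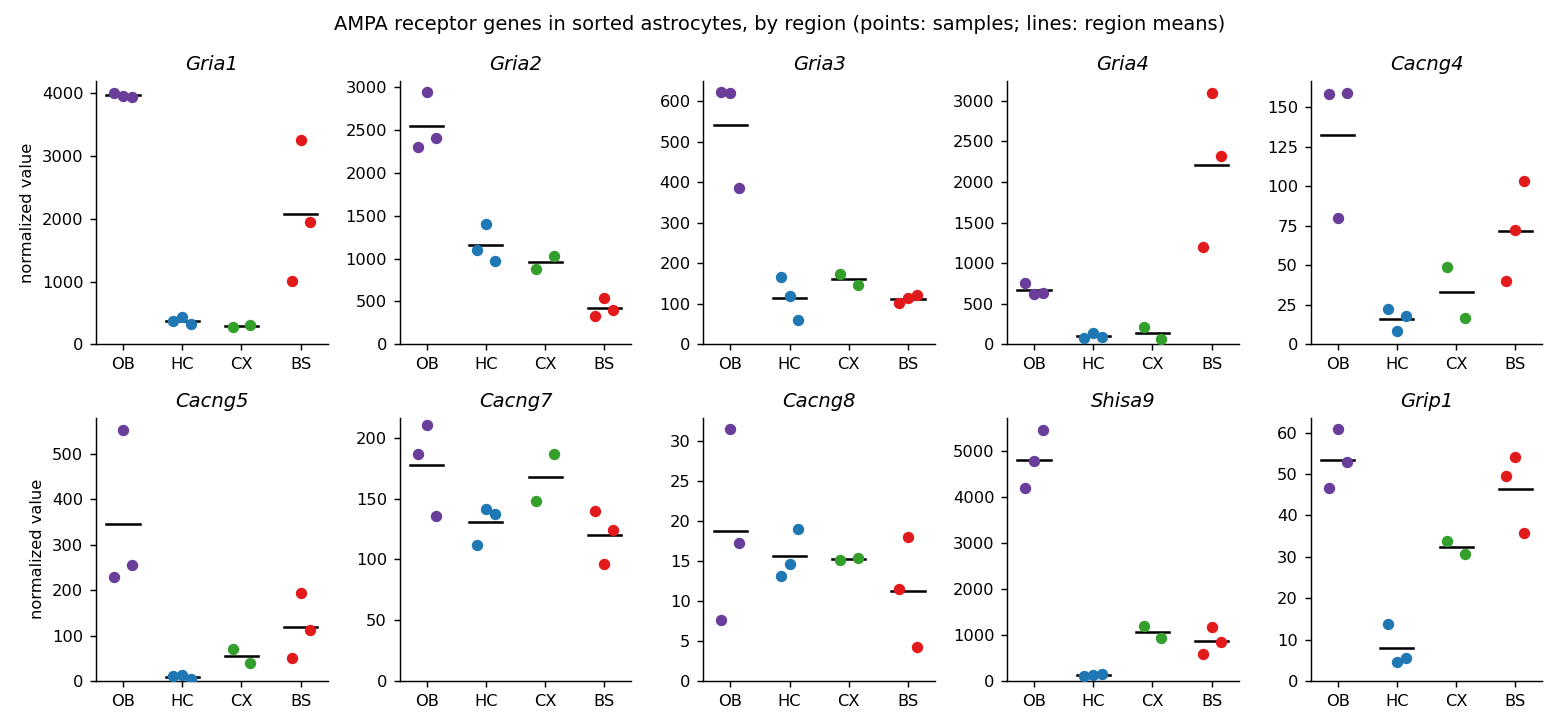
Normalized value (linear axis from 0, a separate scale for each gene) of the 10 genes in OB, HC, CX and BS samples, one point per sample, with lines at the region means. Gria1, Gria2, Gria3 and Shisa9 had their highest samples in OB, Gria4 had its highest in BS, and Cacng8 overlapped between every pair of regions.

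To compare subunits with each other, values were divided by the length of all exons of each gene in GENCODE M21. The sum of Gria1 to Gria4 per exon kb was 1136 ± 49.2 (SD, n = 3) in OB, 769 ± 356 (SD, n = 3) in BS, 212 ± 39.6 (SD, n = 3) in HC and 192 ± 6.49 (SD, n = 2) in CX. Gria2 made up 19.2%, 23.8% and 21.3% of this sum in OB samples and 50.1%, 53.0% and 53.8% in HC samples. It made up 42.6% and 52.6% in CX samples and 7.57%, 4.56% and 4.93% in BS samples. The mean shares were 52.3% ± 1.96 (SD, n = 3) in HC, 47.6% ± 7.07 (SD, n = 2) in CX, 21.4% ± 2.32 (SD, n = 3) in OB and 5.69% ± 1.64 (SD, n = 3) in BS. HC and CX samples overlapped in this share, and OB and BS samples each stood apart.

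Gria2 has the longest annotated exon sequence of the 4, 10486 bases against 5437 to 6305, mainly outside the coding sequence. Divided by coding length instead, its mean share was 67.0% in HC, 62.6% in CX, 33.5% in OB and 9.72% in BS. The size of the share therefore depends on the length used, and the order of the 4 regions was the same under both.

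The remainder of the subunit pool differed between OB and BS. Gria1 made up 60.5% ± 2.42 (SD, n = 3) of the sum per exon kb in OB and 45.3% ± 4.22 (SD, n = 3) in BS, against 30.4% ± 0.873 (SD, n = 3) in HC and 26.0% ± 2.68 (SD, n = 2) in CX. Gria4 made up 45.9% ± 2.33 (SD, n = 3) in BS and 9.36% ± 1.06 (SD, n = 3) in OB. In HC it made up 7.51% ± 1.61 (SD, n = 3). The CX samples differed from each other, with Gria4 shares of 17.1% and 4.94%, so the CX mean for this subunit rests on unlike samples. Gria3 had a share of 8.72% ± 1.89 (SD, n = 3) in OB, where its samples overlapped with those of Gria4. It made up 9.77% ± 4.19 (SD, n = 3) in HC and 3.11% ± 1.34 (SD, n = 3) in BS, the lowest of the 4 there, and reached 15.3% ± 1.17 (SD, n = 2) in CX.

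Ratios between pairs of subunits were steadier than the levels in some regions. Gria1 over Gria2, per exon kb, was 0.597, 0.566 and 0.585 in HC and 0.566 and 0.530 in CX. The OB ratios were 3.15, 2.44 and 2.96, and those of BS were 5.54, 10.96 and 8.91. Gria1 over Gria4 was 0.911, 1.15 and 0.911 in BS, where the level of Gria1 itself ranged from 1005 to 3259. In OB this ratio was 5.76, 6.94 and 6.83. Per coding kb, Gria1 over Gria2 was lower, with means of 0.313 in HC, 0.295 in CX, 1.53 in OB and 4.55 in BS, in the same order of regions.

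**Figure D3:**
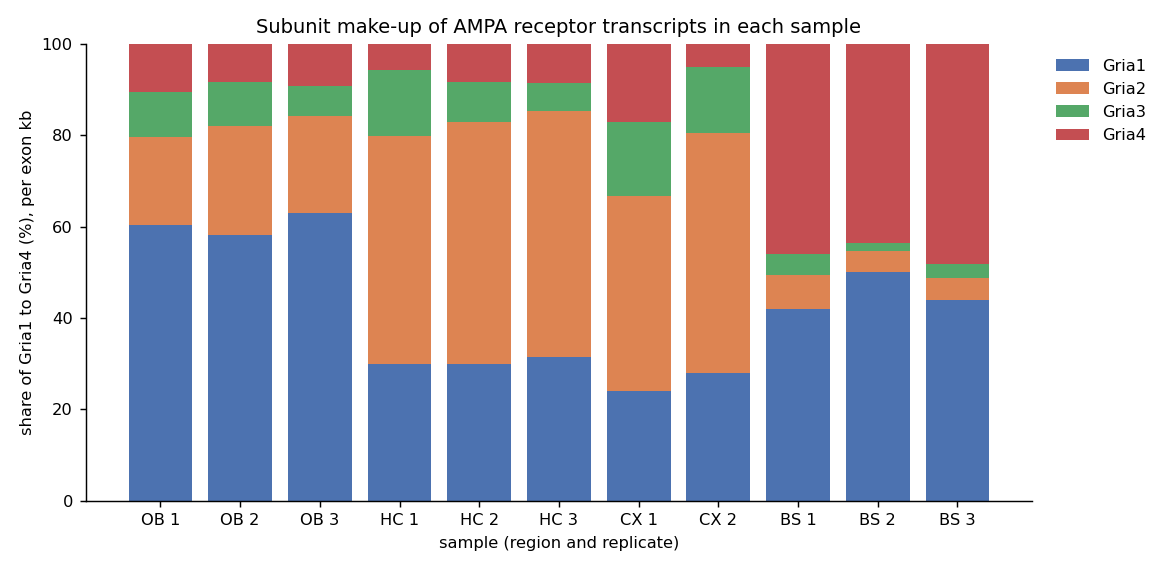
Share of each subunit in the sum of Gria1 to Gria4 per exon kb (stacked bars, percent, adding to 100) in each of the 11 samples. Gria2 took 42.6% to 53.8% in HC and CX samples, 19.2% to 23.8% in OB and 4.56% to 7.57% in BS, where Gria1 and Gria4 made up most of the sum.

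Among the TARPs, Cacng5, a type II TARP, varied most between regions. It had values of 228, 553 and 256 in OB, 9.99, 13.7 and 3.30 in HC, 70.4 and 39.9 in CX and 50.5, 194 and 112 in BS. HC samples rested on 9 to 16 reads each and lay below every other sample. All OB samples exceeded the BS samples, which overlapped with CX.

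Cacng4, a type I TARP, had the same order of region means with more overlap. Its values were 159, 79.7 and 159 in OB, 39.9, 72.1 and 103 in BS, 49.0 and 16.9 in CX and 22.5, 8.22 and 18.0 in HC. Each region overlapped with its neighbour in that order. The OB and HC samples did not overlap, at 9 to 49 reads per HC sample.

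Cacng7, the other type II TARP, was nearly level, with region means of 178 ± 38.3 (SD, n = 3) in OB, 168 ± 27.4 (SD, n = 2) in CX, 130 ± 16.2 (SD, n = 3) in HC and 120 ± 22.1 (SD, n = 3) in BS. Single samples ran from 96.2 to 211, and regions overlapped except that the CX samples lay above those of HC and BS. Cacng8, a type I TARP known as the main one of hippocampal neurons, was low in all regions, with samples between 4.21 and 31.6 from 2 to 52 reads. Its region means were 18.8 ± 12.1 (SD, n = 3) in OB, 15.6 ± 3.10 (SD, n = 3) in HC, 15.2 ± 0.181 (SD, n = 2) in CX and 11.3 ± 6.91 (SD, n = 3) in BS, with overlap throughout. A difference between regions in Cacng8 was not detectable at this depth.

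The TARP pool thus differed in make-up while Cacng7 stayed within a narrow range. Per exon kb, Cacng7 made up 79.3% ± 3.22 (SD, n = 3) of the 4 Cacng members in HC, 70.4% ± 11.3 (SD, n = 2) in CX, 50.1% ± 16.3 (SD, n = 3) in BS and 37.2% ± 5.67 (SD, n = 3) in OB. Cacng5 made up 39.7% ± 10.8 (SD, n = 3) in OB, 26.6% ± 13.5 (SD, n = 3) in BS, 13.4% ± 5.27 (SD, n = 2) in CX and 3.21% ± 1.86 (SD, n = 3) in HC. The type I members made up the rest, with Cacng4 at most 18.8% and Cacng8 at most 11.1% as region means. Per coding kb, the Cacng5 share was 51.3% in OB, 36.6% in BS, 20.99% in CX and 5.55% in HC.

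Shisa9, at chr16:11984113-12270902 on the plus strand, had the highest means of the auxiliary genes per exon kb in OB, CX and BS. In HC it lay below Cacng7, at 29.1 against 58.9 per exon kb and 100 against 158 per coding kb. As normalized values, the OB samples lay at 4195, 4785 and 5452 and the CX samples at 1197 and 926. The BS samples lay at 583, 1166 and 848 and the HC samples at 98.1, 123 and 161. The OB mean was 4.53-fold that of CX, the next region, and the BS mean was 6.80-fold that of HC, without overlap at either step, whereas CX and BS samples overlapped. Per exon kb, Shisa9 reached 1100 ± 144 (SD, n = 3) in OB, beside 1136 for the 4 pore subunits together. Its ratio to that sum was 0.972 in OB, 1.26 in CX, 0.271 in BS and 0.144 in HC. Per coding kb it was 1.38, 1.51, 0.419 and 0.166, in the same regions. HC and CX thus overlapped in the Gria2 share and in the sum of pore subunits per exon kb, and stood apart in Shisa9, at 98.1 to 161 and 926 to 1197.

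Grip1, a PDZ scaffold gene at chr10:119453830-120087261 on the plus strand, was low, at 46.7, 60.8 and 52.8 in OB, 49.4, 54.1 and 35.8 in BS, 33.9 and 30.7 in CX and 13.7, 4.57 and 5.50 in HC. Every HC sample lay below every other sample, on 5 to 22 reads, and OB and BS overlapped. The order of Grip1 differed from that of Gria2 and Gria3, whose products it binds, since BS was second for Grip1, last for Gria2 and level with HC for Gria3.

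As in the study, each region was then compared with all samples from outside it. All 10 genes passed the filter on low values. A call needed 2 or more replicates of a region above a value of 5, a fold over 1.5 and an unadjusted limma p under 0.01. In OB, 4.15% of all genes tested were called higher and 3.89% lower, and 6 of the 10 were called higher and 0 lower. The 6 were Gria1, with a log2 difference of 2.64 ± 0.67 (SE), Gria2 with 1.77 ± 0.38, Gria3 with 2.14 ± 0.29, Cacng4 with 1.98 ± 0.63, Cacng5 with 3.19 ± 0.93 and Shisa9 with 3.46 ± 0.74. The median over the 10 genes was 1.88, beside 0.02 over all genes. The uncalled Gria4 difference depended on the scale, at 1.07 ± 1.12 (SE) by limma on log2 values but -0.39 and -0.42 by edgeR and DESeq2 on reads, with a mean of 670 in OB and 899 in the other samples. The calls of Cacng4 and Cacng5 did not hold each time a sample was left out. That of Cacng4 was lost without OB sample 1 or 3, HC sample 1 or 3 or CX sample 2, with differences of 1.82 to 1.92, and that of Cacng5 without OB sample 2 or 3, with differences of 2.79 and 3.34. Neither had an adjusted p under 0.05, which left 4 of the 6, and Gria1 was not called by DESeq2, at 2.01. Of all 13872 genes tested, limma called 630 at that adjusted threshold in OB.

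In HC, where 0.281% of all genes were called higher and 1.00% lower, 4 of the 10 were called lower. Log2 differences were -2.13 ± 0.60 (SE) for Cacng4, -3.92 ± 0.71 for Cacng5, -3.76 ± 0.64 for Shisa9 and -2.48 ± 0.39 for Grip1. For Gria2 the HC difference was 0.19 ± 0.62 (SE), with the opposite sign by edgeR and DESeq2 at -0.21 and -0.22, beside -2.07 ± 0.82 for Gria1 and -2.73 ± 0.92 for Gria4. No HC call remained with an adjusted p under 0.05, under which limma called 0 of the 10, as did edgeR, and DESeq2 called 5. Of all 13872 genes tested, limma and edgeR likewise called 0 at that threshold in HC, and DESeq2 called 93. At an unadjusted p under 0.05, limma had 6 of the 10, but all genes were not counted at that threshold and nothing is read from it. The Cacng4 call was lost without HC sample 2, at -1.73. Gria1 and Gria4 were called lower as well by edgeR and DESeq2, and by limma without either CX sample, with differences of -2.43 and -2.41 for Gria1 and -2.96 and -3.22 for Gria4.

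In CX, 1.02% of all genes were called higher and 1.74% lower, and limma called 0 of the 10, with 1 at an unadjusted p under 0.05. On the recovered reads edgeR called 0, with 1 at an unadjusted p under 0.05, and DESeq2 called 1, Gria1, at -2.89. All genes were not counted at an unadjusted p under 0.05. The CX difference was -2.27 ± 0.96 (SE) for Gria1 and -2.19 ± 1.23 for Gria4. In BS, 3.98% of all genes were called higher and 5.05% lower. Gria4 was called higher, by 3.30 ± 0.75 (SE), and Gria2 lower, at -1.84 ± 0.36. The Gria1 difference of 1.13 ± 0.92 in BS was not called, and the reference it was set against holds the OB samples, which lay above it. Over the 4 regions in a single test, 16.5% of all genes differed at an adjusted p under 0.05, and so did 8 of the 10, the exceptions being Cacng7 and Cacng8. As the genes were chosen on these region values, nothing is read from these counts.

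**Figure D4:**
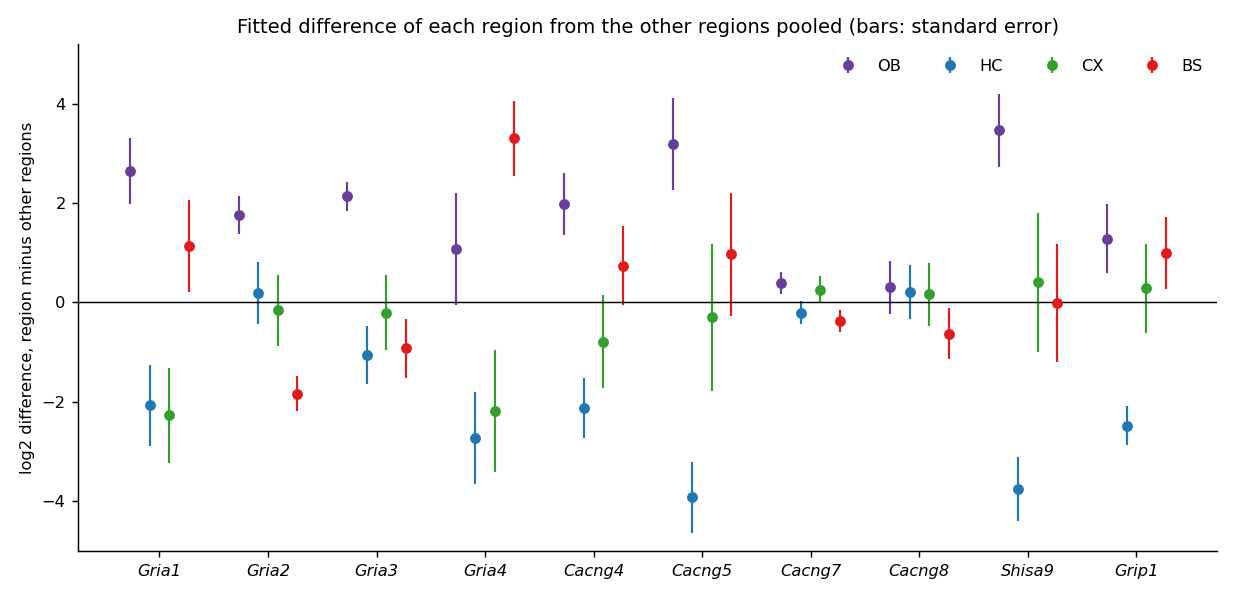
Log2 difference of each region from the other regions pooled, from limma on log2(value + 1), for the 10 genes, with bars of 1 standard error. The OB points lay above 0 for every gene (for Gria4 the sign turned with edgeR and DESeq2, and for Cacng8 without OB sample 2), the HC points of Cacng5 and Shisa9 lay below -3, and Gria4 and Gria2 lay on opposite sides of 0 in BS.

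Some markers of other cells were high where some of these values were high, and others were not. OPCs, which carry AMPA receptors, had their highest summed markers in BS, where Bcas1 made up most of the sum. Bcas1 had means of 4841 in BS, 2321 in HC, 1487 in CX and 633 in OB. Sox10 had means of 196 in OB, 78.7 in BS, 57.7 in CX and 44.6 in HC. In OB and BS, Tnr had means of 386 and 229, Olig2 of 232 and 345, and Cspg4 of 45.3 and 57.5. Pdgfra, a defining OPC gene, lay at 123, 141, 100 and 146 in OB, BS, CX and HC. Gad1, the enzyme of GABA synthesis in interneurons, had a mean of 378 in OB and 26.2 to 48.0 elsewhere, and Dcx, a neuroblast gene, 349 in OB and 15.5 to 44.5 elsewhere. Other neuronal markers differed in order. In OB, HC, CX and BS, Gad2 had means of 361, 63.4, 106 and 178, and Syt1 of 709, 439, 349 and 169. Snap25, at 1170, 1040, 1636 and 2299, was highest in BS, and Slc17a7, at 93.9, 154, 180 and 15.2, was highest in CX. The part of these cells in the OB values of the pore subunits, Cacng5 and Shisa9 was not tested, and neither was that of OPCs in the BS values.

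A further 41 genes act with the AMPA receptor, and 37 of them passed the filter on low values. The 41 were listed with earlier results of these data known, so their counts and adjusted p-values are given as a description. Of the 37, 13 differed among the 4 regions at an adjusted p under 0.05 by limma's F test, or 35.1% against the 16.5% of all genes. An unadjusted p under 0.05 was reached by 18, a threshold at which all genes were not counted. Leaving out single samples gave counts from 5 to 13, with 5 without the first OB sample, where 12.6% of all genes differed. The count was 6 without the third OB sample, 7 without the second HC sample and 6 without the second CX sample, where 12.2%, 14.6% and 12.7% of all genes differed. As shares of the related genes tested, these 4 counts were 13.9%, 16.2%, 18.9% and 15.4%, near those of all genes.

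Among other auxiliary subunits, 4 of 9 tested differed. Cnih2, a cornichon protein that slows channel closing, had means of 82.2 in HC, 77.0 in CX, 22.9 in OB and 11.8 in BS (adjusted p = 0.00315 by limma, 1.18e-06 to 0.0132 over the alternatives). Gsg1l, an auxiliary subunit that reduces currents, had means of 87.6 in OB, 72.1 in CX, 23.7 in HC and 14.5 in BS. Its adjusted p was 0.0351, and it passed in 8 of 17 alternatives. Cnih3 and Cacng3 were lowest in BS, with means of 2.80 and 1.05 from 6 and 2 reads over the 3 samples, under the floor, and passed in 4 and 3 of 17 alternatives.

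Of 8 assembly and editing genes, 1 differed. This was Adarb2, an ADAR family member for which no editing activity is known, with means of 74.8 in OB, 18.7 in BS, 5.92 in HC and 5.30 in CX (adjusted p = 0.0311 by limma, 5.15e-05 to 0.152 over the alternatives). Adarb1, whose product edits the pore codon of Gria2 printed above, had means of 169 ± 39.2 (SD, n = 3) in OB, 103 ± 41.2 (SD, n = 3) in HC, 115 ± 19.1 (SD, n = 2) in CX and 180 ± 62.2 (SD, n = 3) in BS. The OB samples lay above those of CX and the other neighbouring regions overlapped, and it did not pass (adjusted p = 0.231 by limma).

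Of 13 scaffold and trafficking genes, 4 differed. Nsg2, an endosomal protein that binds AMPA receptors, was highest in BS, at 325 ± 64.4 (SD, n = 3), and had means of 170 in HC, 86.2 in OB and 53.6 in CX (adjusted p = 0.000139 by limma). Dlg4, which encodes the synaptic scaffold PSD-95, had means of 732 in CX, 566 in HC, 547 in OB and 308 in BS (adjusted p = 0.0045 by limma). Its relative Dlg2 had means of 1088 in CX, 595 in HC, 480 in OB and 362 in BS (adjusted p = 0.0053 by limma). Nsg2 and Dlg4 passed in all 17 alternatives and Dlg2 in 16.

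Of 7 extracellular partners tested, 4 differed. Gpc4 and Gpc6 encode glypicans that astrocytes release and that recruit AMPA receptors to synapses. Gpc6 had means of 1457 in CX, 787 in HC, 422 in OB and 294 in BS (adjusted p = 0.00022 by limma, passing in all 17 alternatives). Gpc4 had means of 229 in CX, 227 in HC, 166 in BS and 110 in OB (adjusted p = 0.0125 by limma, passing in 15). Nptx1, a pentraxin that clusters AMPA receptors, had means of 118 in HC, 73.0 in CX, 30.1 in BS and 29.7 in OB (adjusted p = 0.0249 by limma, passing in 13 with values up to 0.100). Lrrtm4 was highest in OB, at 84.7, and passed in 7 of 17 alternatives. By region against the others, 7 of the 37 were called lower in BS and 1 higher, against 5.05% and 3.98% of all genes. Of the 7, only Dlg4 and Cnih3 had an adjusted p under 0.05, at 0.0104 and 0.0325 by limma. The gene called higher, Nsg2, had 0.0249. Cnih3 and Cacng3, both among the 7, lay under the floor in BS. In OB, 1 was called higher and 2 lower, against 4.15% and 3.89%. In HC 1 was called higher and 1 lower, against 0.281% and 1.00%, and in CX 2 and 0, against 1.02% and 1.74%.

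**Figure D5:**
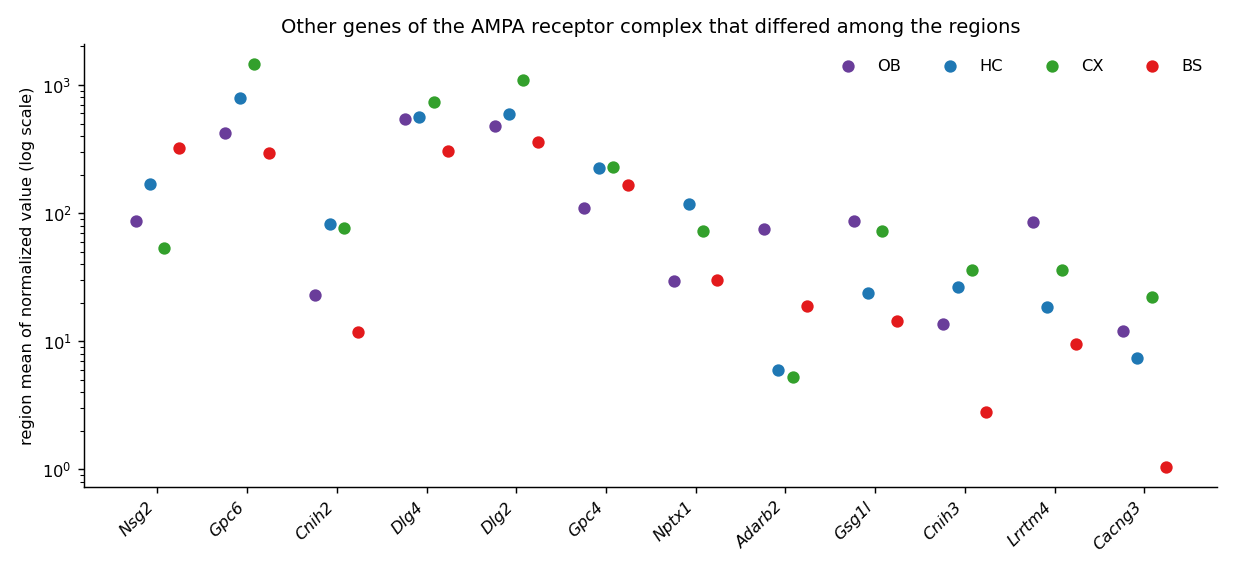
Region means of the normalized value (log axis) for 12 related genes that differed among the regions by limma, in order of p. Gpc6, Dlg4 and Dlg2 were highest in CX, Cnih2 was lowest in BS, and Nsg2 was highest in BS.

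The genes whose log2 values followed each pore subunit most closely over the 11 samples differed between subunits. They are given as a description, since all points share the region structure and the sample depth. For Gria1 they were Ntrk3 (Pearson r = 0.991), 1110015O18Rik (0.970) and Sdc3 (0.966). For Gria2 they were Cxcl5 (0.967), Kcnf1 (0.967) and Epha5 (0.965). Cacna1d (0.977), Dcx (0.951) and Nav1 (0.949) were nearest to Gria3, and Pygm (0.975), Adra2a (0.953) and Gpr179 (0.950) to Gria4. No gene stood in more than 1 of these lists, and Dcx is among the neuroblast markers above.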

How the data were processed

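The authors mapped reads with STAR 2.5.0a to mm10, counted them on UCSC gene models and normalized the counts with DESeq2 1.20.0, per the labels and the study's methods. The deposited values are a normalized signal, the reads of a gene divided by one size factor per sample. Reads were recovered by dividing by the value of 1 read in each sample, which gave whole numbers within 0.01 for 100% of the values above 0. Among the 24421 entries, 4 with a repeated name were left out. Lengths here are those of GENCODE M21, not of the UCSC models used in counting, whose lengths were not used here.

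limma 3.58.1 in R 4.3.3 was fitted with a trend, two-sided, to log2(value + 1) of the 13872 genes kept by edgeR's filterByExpr, and p-values were adjusted by Benjamini-Hochberg over these. Fold changes on this scale understate those of low genes. Each region was set against the other samples pooled, so differences among those other regions entered the residual spread and the standard errors. An F test covered the 4 regions. Alternatives were edgeR 4.0.16 and DESeq2 1.42.0 on recovered reads, another pseudocount and no filter. Further alternatives were another reference with a separate mean per region, the replicate number as a block and the omission of each sample. Shares and ratios were taken per exon or coding kb from GENCODE M21 in Python 3.11.15. Floors of 3 reads cover counting error only. The 10 genes and the lists were chosen with earlier results of these data known. Related genes are named if they passed the F test, at most 12 by p, and the 3 genes of highest Pearson r are named for each pore subunit. The limma fits of OB against the other samples and of the 4 regions were tested on simulated counts, with genes changed in OB alone. The alternatives were not tested in this way.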

Additional observations from a re-analysis of the deposited data

How the results depend on the processing

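The number of the 10 genes called was 6 in OB, 4 in HC, 0 in CX and 2 in BS. With a separate mean fitted per region, and the other region means averaged as reference, it was 8, 7, 2 and 4 in these regions. The share of all genes called went from 8.04% to 11.4% in OB and from 1.28% to 4.801% in HC. In CX that share went from 2.77% to 7.73%, and in BS from 9.03% to 14.1%. The differences of the 2 genes called in CX, Gria1 and Gria4, did not change. The number of the 10 genes called was 1 in CX by DESeq2, which called 4.25% of all genes there. At an adjusted p under 0.05 it was 0 in HC, where 0 of all genes were called. Without single samples it ranged from 4 to 6 in OB, 3 to 6 in HC, 0 to 0 in CX and 2 to 2 in BS, and the number that differed among the 4 regions from 8 to 8, where a lone CX sample is assumed to vary like the other groups. Of the related genes, 13 of 37 differed, or 35.1% against 16.5% of all genes. With a pseudocount of 0.25, 8 of 37 did, or 21.6% against 15.8%, and without a filter 8 of 41 did, or 19.5% against 11.5%. Without a single OB, HC or BS sample the count ran from 5 to 13, or 13.9% to 35.1% of the related genes tested. The causes were not tested. The mean Gria2 share by reads was 32.9% in OB, 66.5% in HC, 62.1% in CX and 9.48% in BS, and by coding length 33.5%, 67.0%, 62.6% and 9.72%, as the exon length of Gria2 is the longest. Without single samples it ran from 20.2% to 22.5% in OB, 51.5% to 53.4% in HC, 42.6% to 52.6% in CX and 4.75% to 6.25% in BS. No called log2 difference of the 10 genes changed sign in an alternative that was run. Differences that were not called did so 18 times under other settings and 16 times without single samples. With edgeR and TMM factors these were Gria4 in OB at -0.39, Gria2 in HC at -0.21, Cacng5 in BS at -0.34 and, in CX, Cacng8 at -0.04, Grip1 at -0.16 and Shisa9 at -0.89. Of the single differences, 7 lost and 16 gained a call under other settings, and 8 lost and 4 gained one without single samples. With the replicate number as a block, the calls were 6, 4, 0 and 2 in OB, HC, CX and BS, against 7.40%, 1.07%, 2.22% and 8.24% of all genes. Then 8 of the 10 genes differed among the regions, and 10 of the 37 related genes tested did, or 27.0%, against 16.8% of all genes. Deviations of same-numbered samples of different regions had a median r of 0.0229 (from -0.16 to 0.25, 15 pairs). Pairs with different numbers had a median r of -0.00258 (from -0.224 to 0.183, 30 pairs). The deviations were taken from means of only 2 or 3 samples, so these values cannot decide whether the numbers pair the samples. Low depth limits Cacng8, Grip1, the HC values of Cacng4 and Cacng5 and the BS values of Cnih3 and Cacng3.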
